A study of Mus musculus with 6 samples.

Results

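The genes of the major histocompatibility complex (MHC) and of the machinery that loads their products were compared between the hearts of Mc4r KO and WT mice. The members were the protein-coding genes of the deposited table whose symbol begins with H2-, the mouse MHC, together with B2m, Cd74, Ciita, Nlrc5, Tap1, Tap2 and Tapbp. They numbered 41 of the 54532 genes in the table, and were divided into 24 class I genes, 9 class II genes, 5 accessory genes of class I, 2 accessory genes of class II and H2-Ke6, which carries an H2 symbol but encodes an enzyme. All mice were 12 weeks of age, with 3 homozygous Mc4r knockout mice and 3 wild-type (WT) littermates from heterozygous matings on the C57B/6/N background. Mc4r encodes the melanocortin-4 receptor, which is best known from the hypothalamus, and the study asked what its loss does to the heart at an early stage. The labels name the tissue as heart, although the sample titles say muscle and the study's text refers to the left ventricle. Polyadenylated RNA was sequenced with 1 library per animal, and levels are given in FPKM, a unit that corrects fragment counts for the length of the gene and for the depth of the library.

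Class I molecules are held at the surface of nearly all nucleated cells, where a heavy chain (H2-K1, H2-D1 and the Q, T and M genes) pairs with beta-2 microglobulin (B2m) and presents peptides that the transporter Tap1/Tap2 brings into the endoplasmic reticulum and tapasin (Tapbp) helps to load. Class II molecules (H2-Aa, H2-Ab1, H2-Eb1) are made mainly by macrophages, dendritic cells and B cells, travel with the invariant chain Cd74, and receive their peptides with the help of H2-DM and H2-O. Nlrc5 and Ciita are the transactivators of the class I and class II promoters.

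In total, 37 of the 41 members lie on chromosome 17, between 33915899 and 37483552 (mouse build GRCm38, mm10). The other 4, B2m, Nlrc5, Ciita and Cd74, lie elsewhere in the genome. RefSeq promoter windows on the same build, which run from 250 bases before the annotated start of transcription to 50 after it, were found for 34 members. The part before the start is shown for 3 class I genes and 2 class II genes, because both classes are read through related elements. Whether these elements have a part in the differences between libraries described below was not tested. The windows are chr17:35262844-35263093 for H2-D1, chr17:35424600-35424849 for H2-Q6 and chr17:35438905-35439154 for H2-Q7, each on the plus strand, chr17:34305617-34305866 on the plus strand for H2-Eb1, and chr17:34287824-34288073 on the minus strand for H2-Aa. All run 5′ to 3′, and capitals mark matches to the elements that were searched.
H2-D1: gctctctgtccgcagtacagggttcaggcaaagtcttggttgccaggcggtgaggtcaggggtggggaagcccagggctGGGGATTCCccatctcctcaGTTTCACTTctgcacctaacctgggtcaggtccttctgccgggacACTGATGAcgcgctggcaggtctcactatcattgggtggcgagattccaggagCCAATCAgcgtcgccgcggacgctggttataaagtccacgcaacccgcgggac
H2-Q6: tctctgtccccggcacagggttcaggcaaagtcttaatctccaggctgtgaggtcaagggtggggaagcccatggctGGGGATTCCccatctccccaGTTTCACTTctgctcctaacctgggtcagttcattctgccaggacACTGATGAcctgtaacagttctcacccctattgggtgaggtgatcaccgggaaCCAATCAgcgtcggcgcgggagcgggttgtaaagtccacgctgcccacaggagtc
H2-Q7: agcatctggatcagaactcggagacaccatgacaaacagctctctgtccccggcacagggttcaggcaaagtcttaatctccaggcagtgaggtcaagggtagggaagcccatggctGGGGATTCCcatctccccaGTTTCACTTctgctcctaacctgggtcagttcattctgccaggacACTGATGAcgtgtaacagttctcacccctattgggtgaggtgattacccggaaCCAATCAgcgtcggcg
H2-Eb1: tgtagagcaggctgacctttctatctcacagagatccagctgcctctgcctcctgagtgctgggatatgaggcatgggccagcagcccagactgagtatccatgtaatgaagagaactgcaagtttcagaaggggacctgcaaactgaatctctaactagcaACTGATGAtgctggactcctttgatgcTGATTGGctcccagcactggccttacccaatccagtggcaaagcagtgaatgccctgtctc
H2-Aa: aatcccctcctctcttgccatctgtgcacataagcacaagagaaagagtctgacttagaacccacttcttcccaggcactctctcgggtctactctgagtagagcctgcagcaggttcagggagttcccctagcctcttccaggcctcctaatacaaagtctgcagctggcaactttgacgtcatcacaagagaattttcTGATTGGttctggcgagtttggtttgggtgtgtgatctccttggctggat

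Both strands were searched for the Y box (TGATTGG, the letters read by NF-Y), the core of an X box (ACTGATGA, in the stretch read by RFX and CREB), a kappaB element (GGGGATTCC, NF-kappaB) and an element of interferon regulatory factors (GTTTCACTT), and no matches to different elements overlapped. The letters were chosen after the windows had been read. The Y box was found for 15 of 22 class I genes and 7 of 8 class II genes, and in 7.82% of all 32851 promoter windows. The X box core was found for 6 class I and 2 class II genes (0.968% of all windows). The kappaB letters were found for 4 class I genes, H2-D1, H2-K1, H2-Q6 and H2-Q7 (0.25% of all windows), and for 0 class II genes. The interferon element was found for 9 class I genes (0.399% of all windows) and 0 class II genes. In H2-D1 and H2-Q6 the 4 elements stood in the same order and at nearly the same distance from the start, with the kappaB element beginning 171 and 173 bases, the interferon element 151 and 153 bases, the X box core 106 and 108 bases and the Y box 53 and 55 bases before it. In H2-Eb1 the X box core began 88 bases and the Y box 61 bases before the start. A match is only a run of letters, and whether these sites are bound in the heart was not measured.

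Depth was similar in all animals, since the gene-assigned reads recovered from the deposited values ranged from 14767929 to 16047003 per WT library and from 14691076 to 15649074 per Mc4r KO library. Transcripts of the mitochondrial genome took 47.1% to 59.3% of the summed FPKM in WT and 43.0% to 46.6% in Mc4r KO. The share was lower in every Mc4r KO library. However, WT replicate 3 (47.1%) lay near the Mc4r KO libraries and away from WT replicates 1 and 2 (59.3% and 57.4%). The heart label fitted the markers, since Myh6, the adult cardiac myosin heavy chain, stood between 2231 and 3082 FPKM in all 6 libraries. Mc4r itself had 2 reads in WT replicate 3 and 0 in every other library, so its level could not check the genotype labels.

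No difference in a member passed the test. A gene was called when limma, fitted to log2(FPKM + 0.1) over all 18035 genes that averaged 0.1 FPKM or more, gave an adjusted p under 0.05 with a log2 fold change beyond 0.75 in either direction. Of the 41 members, 25 were abundant enough to be tested, and 0 were called, against 83 of all genes tested (0.46%). At an unadjusted p under 0.05 there was 1 member, H2-T24, against 20.9% of all genes tested. H2-T24 was also the 1 tested member whose Mc4r KO and WT libraries did not overlap, against 26.4% of all genes tested. Limma voom on the recovered reads also called 0 members, against 324 of all 18035 genes tested. Among the tested members, 16 were on average higher and 9 lower in Mc4r KO, with a median log2 fold change of 0.05, beside −0.01 over all genes tested. This balance turned with libraries scaled to the sum outside the mitochondrial genome, where 8 were higher and 17 lower. That scaling also moved the median over all genes tested to −0.19. With the mitochondrial share as a covariate, 7 members were higher and 18 lower, while the median over all genes tested was 0.002. The members instead differed between animals of the same genotype. Their median standard deviation on the log2 scale was 0.68 among the Mc4r KO libraries and 0.29 among the WT libraries, beside 0.18 and 0.23 over all genes tested. In tissue RNA, fewer cells of a type and less RNA per cell cannot be told apart.

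**Figure D1:**
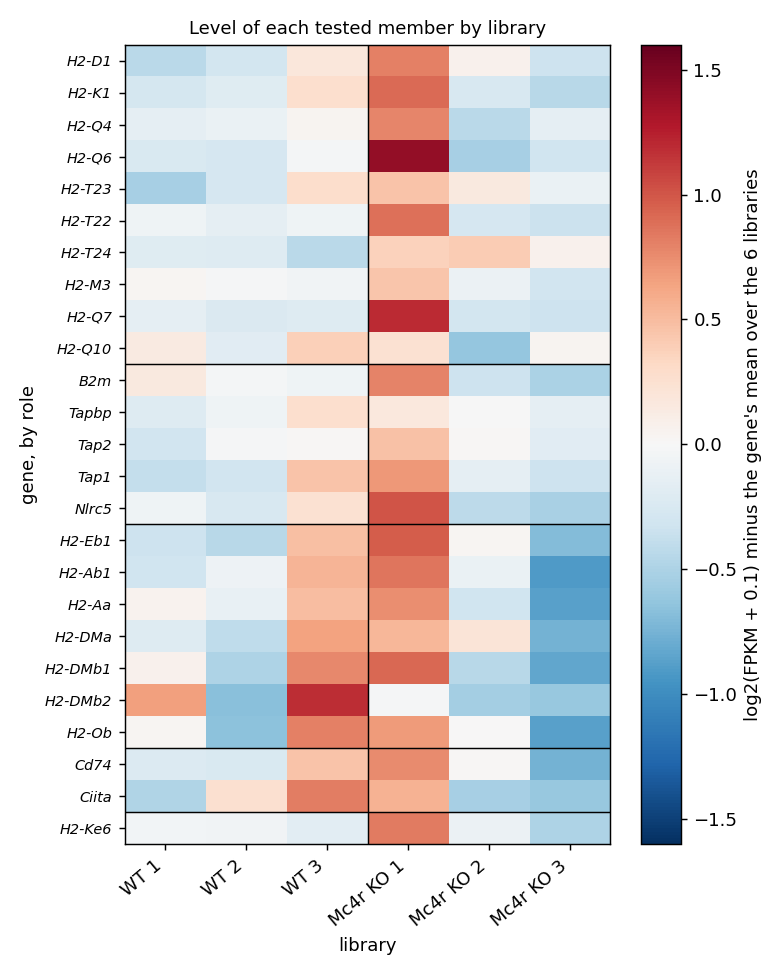
Level of the 25 tested members (rows, grouped by role) in each library (columns), as log2(FPKM + 0.1) minus the gene's mean over the 6 libraries. Mc4r KO replicate 1 holds the highest value of 18 of the 25 members and Mc4r KO replicate 3 the lowest of 15.

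Mc4r KO replicate 1 held the highest value of 18 of the 25 tested members, whereas it was the highest library for 12.2% of all genes tested. Mc4r KO replicate 3, of the same genotype, held the lowest value of 15 members, whereas it was the lowest for 14.3% of all genes tested. Members share cells, regulators and in part reads, so these counts describe the libraries and were not tested. Among the 19 members with a mean of at least 1 FPKM, the level in Mc4r KO replicate 1 was a median of 2.11 times the mean of the other Mc4r KO libraries.

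The classical class I heavy chains were the most abundant heavy chains. H2-D1 (ENSMUSG00000073411, chromosome 17, 35262730 to 35267499, plus strand) had 61.1, 67.4 and 93.4 FPKM in WT and 144, 86.6 and 65.4 in Mc4r KO, with the values of each group given here and below in the order of replicates 1, 2 and 3. H2-K1 (ENSMUSG00000061232, chromosome 17, 33996017 to 34000333, minus strand) had 51.3, 54.6 and 74.8 FPKM in WT and 117, 52.3 and 45.6 in Mc4r KO. In both genes Mc4r KO replicate 1 was the highest library, WT replicate 3 was the highest of its group, and the groups overlapped. The mean of H2-D1 was 74.0 ± 17.1 FPKM (SD, n = 3) in WT and 98.8 ± 40.8 in Mc4r KO, with a log2 fold change of 0.36 ± 0.29 (SE) and an adjusted p of 0.53 (limma). For H2-K1 the means were 60.3 ± 12.7 and 71.5 ± 39.3 FPKM, with a log2 fold change of 0.14 ± 0.35 and an adjusted p of 0.858 (limma). H2-K1 and H2-D1 together took 70.8% to 76.2% of the summed class I level in each library. Some of their 50-base words also occur in other genes, 9.63% for H2-K1 and 12.8% for H2-D1.

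The Q genes encode non-classical class I chains, and among class I genes H2-Q6 and H2-Q7 stood out the most in Mc4r KO replicate 1. H2-Q6 (ENSMUSG00000073409) had 8.74, 8.58 and 10.2 FPKM in WT and 27.8, 7.13 and 8.31 in Mc4r KO. H2-Q7 (ENSMUSG00000060550) had 2.79, 2.63 and 2.67 FPKM in WT and 7.21, 2.52 and 2.44 in Mc4r KO. H2-Q4 (ENSMUSG00000035929) had 11.7, 12.1 and 13.4 FPKM in WT and 22.3, 9.61 and 11.7 in Mc4r KO. In H2-Q6 and H2-Q7 the other 5 libraries lay close together, and Mc4r KO replicate 1 alone was 3.23 and 2.76 times their mean. In reads, H2-Q6 had 899 in that library and 226 to 362 in the others. The log2 fold changes between the groups were 0.37 ± 0.47 for H2-Q6, 0.38 ± 0.39 for H2-Q7 and 0.13 ± 0.28 for H2-Q4, with adjusted p-values between 0.604 and 0.827 (limma). These genes are near copies, since 35% of the 50-base words of H2-Q6, 26.5% of those of H2-Q7 and 36.4% of those of H2-Q4 occur in other genes, and reads may have been divided among them. Of H2-Q4's exon bases, 19.1% also lie under a gene on the opposite strand, and the use of strand in the counting is not given in the sources used here.

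H2-T24 (ENSMUSG00000053835, chromosome 17, 36005695 to 36020560, minus strand), a T-region class I gene, had a different pattern. It had 4.88, 4.82 and 4.09 FPKM in WT and 7.20, 7.39 and 5.83 in Mc4r KO. All Mc4r KO libraries lay above all WT libraries, and Mc4r KO replicate 2, not replicate 1, was the highest. The means were 4.59 ± 0.438 and 6.81 ± 0.854 FPKM (SD, n = 3), and the log2 fold change was 0.55 ± 0.13 (SE) with an unadjusted p of 0.0035 and an adjusted p of 0.0959 (limma), so it was not called. With libraries scaled to the sum outside the mitochondrial genome, its log2 fold change was 0.36 ± 0.16 with an adjusted p of 0.232 (limma) and its groups overlapped, while the median over all genes tested moved to −0.19. Only 3.17% of its 50-base words occur in other genes.

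The remaining class I genes above 1 FPKM were H2-T23, H2-T22 and H2-M3. H2-T23 encodes Qa-1, a ligand of the NK cell receptor CD94/NKG2A, and had 7.05, 8.41 and 12.4 FPKM in WT and 14.0, 11.4 and 9.49 in Mc4r KO. H2-T22, a ligand of some gamma-delta T cells, had 5.98, 5.65 and 5.97 FPKM in WT and 11.6, 5.17 and 4.91 in Mc4r KO. H2-M3, which presents N-formylated peptides, had 3.75, 3.63 and 3.51 FPKM in WT and 5.02, 3.43 and 2.95 in Mc4r KO. In all 3 genes Mc4r KO replicate 1 was the highest library and the groups overlapped, with log2 fold changes of 0.34 ± 0.23, 0.18 ± 0.31 and 0.03 ± 0.19 and adjusted p-values of 0.438, 0.779 and 0.952 (limma). H2-T22 shares 53.5% of its 50-base words with other genes, first among them H2-T10, and its value is uncertain for that reason.

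The light chain and the loading machinery of class I were measured alongside. B2m (ENSMUSG00000060802), the most abundant member, had 273, 239.6 and 235 FPKM in WT and 424, 195 and 172 in Mc4r KO. Mc4r KO replicate 1 was again the highest, and the other Mc4r KO libraries lay below all WT libraries. The means were 249 ± 21.1 and 264 ± 139 FPKM (SD, n = 3), with a log2 fold change of −0.04 ± 0.32 and an adjusted p of 0.966 (limma). Tap1 had 1.96, 2.06 and 3.57 FPKM in WT and 4.24, 2.32 and 2.03 in Mc4r KO. Tap2 had 4.15, 5.06 and 5.20 FPKM in WT and 7.19, 5.24 and 4.53 in Mc4r KO. Tapbp varied least, with 18.2, 20.1 and 25.4 FPKM in WT and 23.7, 20.9 and 19.0 in Mc4r KO, although 24.9% of its exon bases lie under an exon of a gene on the opposite strand. The adjusted p-values of Tap1, Tap2 and Tapbp were 0.829, 0.552 and 0.986 (limma). The transactivator Nlrc5, below 1 FPKM on average, ranged from 0.565 to 1.81 FPKM, with its highest value in Mc4r KO replicate 1.

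**Figure D2:**
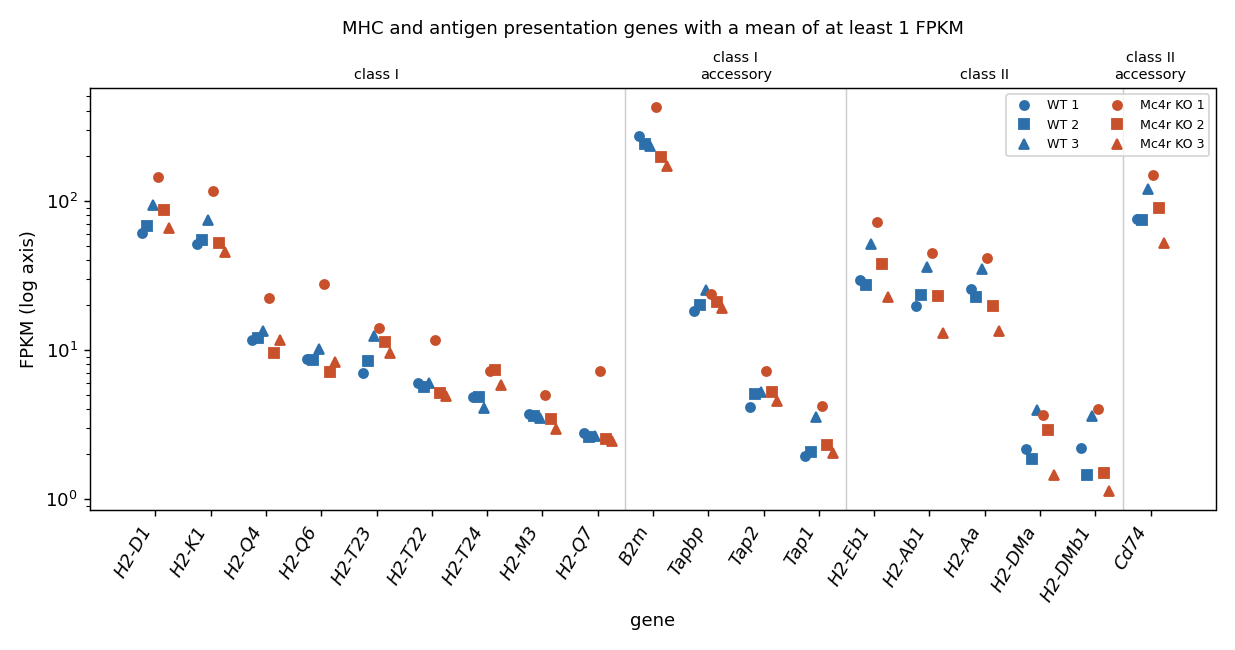
FPKM (log axis) of the 19 members with a mean of at least 1 FPKM, by role, with 1 point per library (blue, WT; red, Mc4r KO; circle, square and triangle for replicates 1, 2 and 3). The red circle, Mc4r KO replicate 1, is the highest point of 16 of the 19 genes, and the groups overlap for every gene shown other than H2-T24.

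Class II genes were high in 1 library of each genotype. H2-Eb1 (ENSMUSG00000060586, chromosome 17, 34305877 to 34316199, plus strand), a class II beta chain, had 29.3, 27.1 and 51.6 FPKM in WT and 72.2, 37.6 and 22.7 in Mc4r KO. H2-Ab1 (ENSMUSG00000073421), the beta chain of I-A, had 19.6, 23.2 and 35.9 FPKM in WT and 44.5, 22.8 and 13.1 in Mc4r KO. H2-Aa (ENSMUSG00000036594), its alpha chain, had 25.6, 22.8 and 34.9 FPKM in WT and 41.5, 19.8 and 13.5 in Mc4r KO. Mc4r KO replicate 1 was the highest library in each, WT replicate 3 came next, and Mc4r KO replicate 3 was the lowest. The invariant chain Cd74 had 76.0, 74.4 and 121 FPKM in WT and 149, 89.3 and 52.2 in Mc4r KO. The H2-DM chains, which remove the invariant chain fragment from the groove, shared the top pair and the lowest library, although H2-DMa was highest in WT replicate 3. H2-DMa had 2.16, 1.87 and 3.97 FPKM in WT and 3.69, 2.93 and 1.44 in Mc4r KO. H2-DMb1 had 2.20, 1.45 and 3.64 FPKM in WT and 4.03, 1.51 and 1.13 in Mc4r KO. Across these 6 genes, the same pair of libraries was highest in 6 and Mc4r KO replicate 3 was lowest in 6. Their log2 fold changes between the groups lay between −0.29, for H2-Aa, and 0.20, for H2-Eb1, and the smallest adjusted p was 0.709 (limma).

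The other tested class II members were low. H2-DMb2 ranged from 0.204 to 0.996 FPKM with a log2 fold change of −0.78 ± 0.49 and an adjusted p of 0.412 (limma), the lowest fold change of any tested member. It rests on few reads, 16, 5 and 29 in WT and 10, 6 and 6 in Mc4r KO. Of the 50-base words of H2-DMb2, 25.9% occur in other genes, first among them H2-DMb1. H2-Ob, a chain of the H2-O inhibitor of H2-DM, ranged from 0.158 to 0.726 FPKM. The transactivator Ciita ranged from 0.183 to 0.659 FPKM, with its highest values in WT replicate 3 and Mc4r KO replicate 1. Low members of other roles were H2-Q10, at 0.0454 to 0.189 FPKM (3 to 14 reads), and H2-Ke6, at 0.0407 to 0.252 FPKM (1 to 6 reads). Of H2-Ke6's exon bases, 86.4% also lie in Gm20427 on the same strand, and 70.5% of its 50-base words occur in other genes. Reads of H2-Ke6 may thus have been lost or assigned elsewhere, and its level is uncertain. For H2-Q10, 19.1% of the words occur in other genes.

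The 16 untested members had almost no reads in the heart. H2-Oa, H2-M5, H2-Q1, H2-M2, H2-Eb2 and H2-Q2 had at most 4 reads in any library, and no reads were counted in any library on the other 10, H2-T3, H2-M1, H2-M9, H2-M11 and the H2-M10 genes H2-M10.1 to H2-M10.6. A count of 0 allows up to 3 reads, which for a gene of 1 kb was 0.176 to 0.213 FPKM, so a low level was not detectable at this depth.

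Summed by class, the levels showed the same libraries. The class I sum was 158, 168 and 221 FPKM in WT and 356, 186 and 157 in Mc4r KO. The class II sum was 80.1, 76.9 and 132 FPKM in WT and 167, 85.4 and 52.3 in Mc4r KO. The ratio of the class II to the class I sum was 0.509, 0.458 and 0.597 in WT and 0.469, 0.460 and 0.333 in Mc4r KO. Thus Mc4r KO replicate 1 had the most of both classes in a ratio within the range of WT, while Mc4r KO replicate 3 had the lowest ratio. B2m stood at 1.06 to 1.74 times the class I sum in WT and 1.05 to 1.19 times in Mc4r KO. Cd74 stood at 0.892 to 1.04 times the class II sum over the 6 libraries.

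The comparison between the genotypes depended on single libraries, among them Mc4r KO replicate 1. The median log2 fold change was 0.26 over the 10 tested class I genes and −0.12 over the 7 tested class II genes with all libraries. Without Mc4r KO replicate 1 it was −0.20 and −0.55, and 20 of 24 tested members were lower in Mc4r KO. That library was singled out because it held the highest value of most members. Leaving it out was therefore bound to lower their fold changes, and the values of this fit describe that dependence only. In that fit 10 of the 24 did not overlap between the groups, against 36.5% of all genes tested, and 9 of these were lower in Mc4r KO (B2m, H2-Aa, H2-Q4, H2-Q6, H2-Q7, H2-T22, H2-M3, Nlrc5 and Ciita). H2-T24 was the 1 that was higher. B2m then had a log2 fold change of −0.44 ± 0.13 and H2-Aa of −0.74 ± 0.24, with adjusted p-values of 0.21 and 0.232 (limma). In that fit 0 members were called, against only 9 of all 18080 genes tested. Without WT replicate 3, on the other hand, the class II median was 0.15. Without Mc4r KO replicate 3, the class I and class II medians were 0.44 and 0.28, and 22 of 25 tested members were higher in Mc4r KO. That library held the lowest value of most members, so leaving it out was bound to raise their fold changes.

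**Figure D3:**
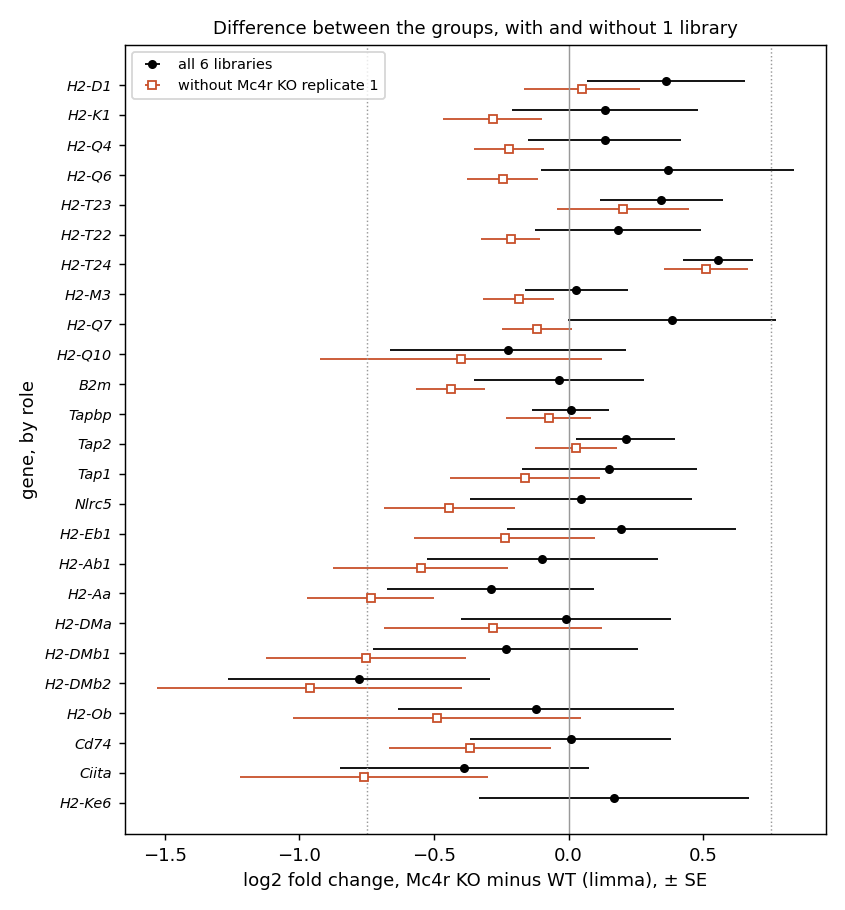
Log2 fold change of each tested member, Mc4r KO minus WT, with its standard error from limma, over all 6 libraries (black) and without Mc4r KO replicate 1 (red, open). Dotted lines mark the call threshold of 0.75, and H2-T24 stays near 0.5 in both while most other members move to the left.

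The genes that supply peptides to class I, process proteins for class II or drive MHC promoters were read from the same fit, and so were interferon-induced and costimulatory genes and genes for MHC-like molecules. Of the 60 tested genes of these lists, 0 were called by limma, against the same 0.46% of all genes tested. Among 12 genes of peptide supply, 2 had an unadjusted p under 0.05 (limma), both lower, against 20.9% of all genes tested in either direction. Canx, the chaperone calnexin, had 62.3, 61.8 and 53.4 FPKM in WT and 45.1, 46.3 and 49.9 in Mc4r KO, a log2 fold change of −0.33 ± 0.09 with an adjusted p of 0.123 (limma). The summed level of this list, to which abundant genes such as Canx contribute most, ranged from 258 to 283 FPKM. The immunoproteasome subunits Psmb8 and Psmb9, chosen after their values were seen, had the order of libraries of the class II genes at the top. Psmb8 had 2.18, 1.98 and 5.11 FPKM in WT and 5.63, 3.13 and 2.73 in Mc4r KO. Psmb9 had 1.84, 1.75 and 3.42 FPKM in WT and 3.66, 1.91 and 2.15 in Mc4r KO. Both were highest in Mc4r KO replicate 1, followed by WT replicate 3, and were 1.92 and 1.81 times the mean of the other Mc4r KO libraries there. Psmb10, also an immunoproteasome subunit, was instead highest in WT replicate 3, with 24.6 FPKM. Its level in Mc4r KO replicate 1 was 22.9 FPKM, 1.21 times the mean of the other Mc4r KO libraries. Among 8 genes of endosomal processing, 1 was higher and 1 lower at an unadjusted p under 0.05 (limma), against the same 20.9%. Ctsd, cathepsin D, had 168, 168 and 175 FPKM in WT and 207.5, 235 and 245 in Mc4r KO, a log2 fold change of 0.42 ± 0.09 with an adjusted p of 0.0871 (limma). Ctss, cathepsin S, which trims the invariant chain and was chosen after its values were seen, had 10.3, 8.87 and 16.0 FPKM in WT and 18.1, 11.5 and 12.9 in Mc4r KO, and was also highest in Mc4r KO replicate 1. Relative to each gene's mean, the median of Mc4r KO replicate 1 was 0.02 for peptide supply and 0.06 for endosomal processing on the log2 scale.

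Of 14 transcription factors of MHC promoters, 2 were higher and 1 lower at an unadjusted p under 0.05 (limma). This was near the 20.9% of all genes tested at that p. Rfxap and Rfxank are subunits of RFX, which occupies the X box. Rfxap had 3.92, 4.04 and 5.24 FPKM in WT and 5.49, 6.37 and 5.92 in Mc4r KO. Rfxank had 1.64, 2.16 and 2.29 FPKM in WT and 2.68, 2.82 and 3.06 in Mc4r KO. The groups did not overlap in either gene, as in 26.4% of all genes tested. The log2 fold changes were 0.43 ± 0.14 and 0.48 ± 0.15, with adjusted p-values of 0.147 (limma). Of 4 tested genes for MHC-like molecules, Fcgrt, the neonatal Fc receptor, had 28.5, 30.2 and 39.6 FPKM in WT and 46.8, 42.6 and 44.5 in Mc4r KO, a log2 fold change of 0.46 ± 0.13 with an adjusted p of 0.125 (limma).

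Interferon-induced genes were highest in WT replicate 3, where their sum was 145 FPKM, followed by Mc4r KO replicate 1 with 103, and lay between 55.1 and 73.4 in the others. Of 17 genes, 9 were highest in WT replicate 3 and 5 in Mc4r KO replicate 1, and their median log2 fold change was −0.29. Cxcl9, an interferon-gamma target that attracts T cells, had 3.72, 3.53 and 5.47 FPKM in WT and 2.78, 0.982 and 0.579 in Mc4r KO, a log2 fold change of −1.73 ± 0.49 with an adjusted p of 0.124 (limma). By limma voom on the recovered reads its adjusted p was 0.033 and it was called. Of 5 costimulatory genes tested, Cd274 (PD-L1) had 3.72, 3.73 and 5.51 FPKM in WT and 3.68, 2.44 and 2.10 in Mc4r KO, with an adjusted p of 0.193 (limma).

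Markers of the cells that carry these molecules also differed between libraries. The sum of 14 macrophage markers was 126, 111 and 192 FPKM in WT and 183, 159.5 and 149 in Mc4r KO. This sum, to which the abundant C1qa, C1qb and C1qc contribute most, was highest in WT replicate 3 and Mc4r KO replicate 1, as class II was. Of the 14 markers, 5 were highest in WT replicate 3 and 6 in Mc4r KO replicate 1. Others differed, since Cd68 was lowest in Mc4r KO replicate 1 and Mertk in WT replicate 3. Mrc1 in Mc4r KO replicate 1 (5.92 FPKM) lay below all WT libraries (6.21 to 9.11 FPKM). The class II sum divided by the macrophage sum was 0.637, 0.693 and 0.688 in WT and 0.912, 0.536 and 0.351 in Mc4r KO. The sum of 8 B cell markers was 20.4, 5.19 and 21.1 FPKM in WT and 6.04, 4.80 and 5.52 in Mc4r KO. Cd79b, a chain of the B cell receptor, had 0.892, 0.730 and 1.03 FPKM in WT and 0.315, 0.046 and 0.305 in Mc4r KO, with an adjusted p of 0.104 (limma). In reads, Cd79b had only 18, 15 and 25 in WT and 7, 1 and 7 in Mc4r KO. The sum of 9 T and NK cell markers was 2.06 FPKM in WT replicate 3 and 2.44 in Mc4r KO replicate 1, and 0.291 to 0.815 in the others. These sums rest on few reads, and only 4 of the 9 genes were abundant enough to be tested. Cd3d, chosen after its values were seen, was 0.324 and 0.426 FPKM in those 2 libraries (10 and 12 reads) and at 0 in the other 4. Other genes of the list did have reads outside those 2 libraries. Cd4 had 14, 7 and 19 reads in WT and 44, 25 and 15 in Mc4r KO. Cd8b1 had 3, 2 and 10 in WT and 4, 0 and 3 in Mc4r KO. The leukocyte marker Ptprc was highest in WT replicate 3, with 0.817, 0.502 and 1.03 FPKM in WT and 0.658, 0.478 and 0.415 in Mc4r KO. The 8 dendritic cell markers summed to 4.63 to 5.49 FPKM, and 6 endothelial markers to 142 to 170.2 FPKM. The class I sum divided by the endothelial sum was 0.982, 0.987 and 1.53 in WT and 2.11, 1.10 and 1.11 in Mc4r KO. Of 49 tested marker genes, 0 were called by limma, against 0.46% of all genes tested, and their part in the MHC values was not tested.

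**Figure D4:**
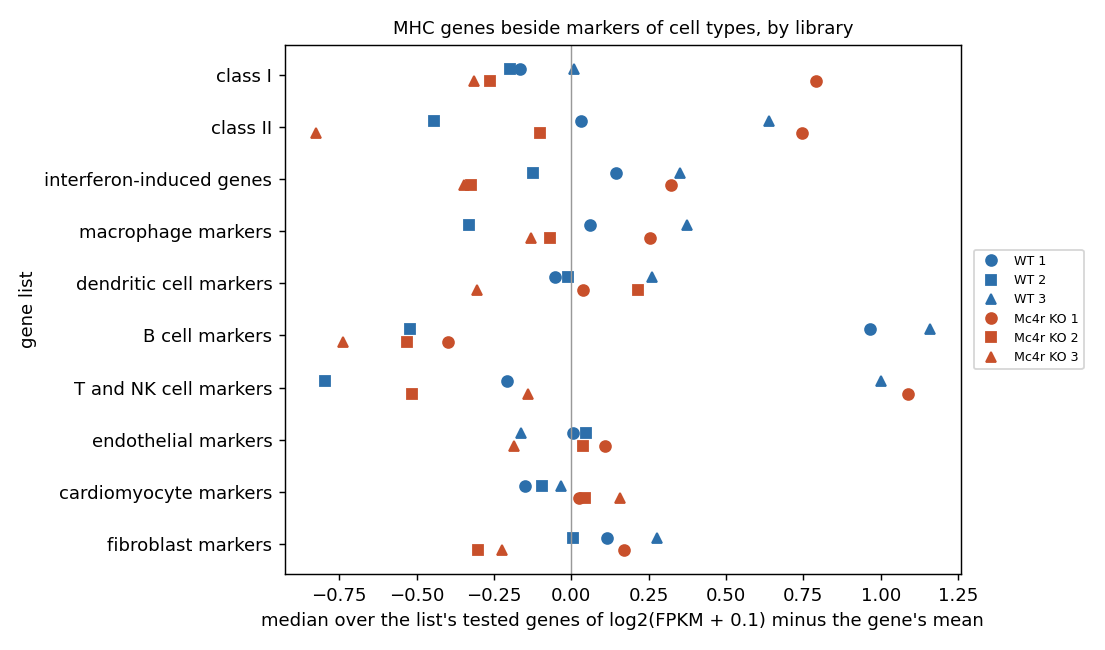
Median over the tested genes of each list of log2(FPKM + 0.1) minus the gene's mean, with 1 point per library (blue, WT; red, Mc4r KO; circle, square and triangle for replicates 1, 2 and 3). For class I Mc4r KO replicate 1 (0.79) lies farthest from 0, for class II Mc4r KO replicate 1 (0.75) and WT replicate 3 (0.64) lie high and Mc4r KO replicate 3 (−0.83) and WT replicate 2 (−0.44) low, and the B cell markers are highest in WT replicates 1 and 3.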

How the data were processed

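Total RNA of 3 Mc4r KO and 3 WT hearts was enriched for polyadenylated transcripts. The authors filtered the read pairs, aligned them with HISAT2 (2.0.5) to mm10, counted gene reads with featureCounts and used DESeq2 for differential expression. FPKM values were deposited for every gene in each library, beside gene length, position and biotype. Annotation release and strand setting are not given in the sources used here. The median-of-ratios factor of the deposited FPKM was 1.006 in every library, so they already carried a scaling between libraries, and transcripts that dominate a library, such as mitochondrial ones, could still move the values of others. Within a library, 100% of the products of FPKM and gene length were whole multiples (tolerance 0.01) of a single step, from which reads were recovered. Depth and floors cover counting error only.

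All 6 libraries were compared with limma (3.58.1, R 4.3.3) on log2(FPKM + 0.1) after median-of-ratios scaling, with the empirical Bayes trend, no covariate and Benjamini-Hochberg adjustment over the 18035 genes averaging 0.1 FPKM or more. P-values are two-sided, and fold changes on this scale understate changes of low genes. On simulated data for this comparison (17999 genes tested, 200 changed), limma recovered 40% of changes of 1 and 97% of changes of 2 on the log2 scale, with 22 false calls, and limma voom 80% and 100%, with 5 false calls. Every gene was simulated with the same relative spread between animals beyond counting error. The median standard error of the members was 0.38, against 0.19 over all genes tested, so these rates cannot be carried over to the members. Differences as small as most seen here could thus be missed.

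The members and gene lists were chosen with earlier results of these data known. Members with a mean FPKM of at least 1 are given in every library, and of the other lists at most the 3 genes with the smallest p. Shared 50-base words and overlapping exons were taken from GENCODE M21, in which 99.8% of the identifiers were found, and promoters from RefSeq (GRCm38.p6), for 34 of 41 members. The alternatives were pseudocounts of 0.01 and 1, other filters, scalings and variance models, a replicate block, the mitochondrial share as a covariate, limma voom on recovered reads, other fold thresholds and fits without each library. A filter of 10 reads on average was chosen after seeing the data. Figures were drawn with matplotlib 3.10.9.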

Additional observations from a re-analysis of the deposited data

How the results depend on the processing

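The count of members called was 0 under every alternative run. The count of all genes called, 83 (57 higher, 26 lower), depended strongly on the settings. It was 44 with a pseudocount of 1, 22 without a filter, 147 with a mean FPKM of at least 1, 181 with at least 10 reads on average (chosen after seeing the data), 204 with protein-coding genes alone, 49 with quantile normalization, 21 without the trend, 436 with array weights, 2 with the mitochondrial share as a covariate and 324 with limma voom. With scaling outside the mitochondrial genome it was 41 (16 higher, 25 lower), and 0 members had an unadjusted p under 0.05 or groups without overlap. Leaving out 1 library gave 7 to 726 genes called, the lowest without WT replicate 1 and the highest without WT replicate 3. It gave 1 to 3 members at an unadjusted p under 0.05, 1 to 10 members without overlap, and medians of −0.20 to 0.44 for class I and −0.55 to 0.28 for class II, where the ends of each range of medians were the fits without Mc4r KO replicate 1 and without Mc4r KO replicate 3. The cause was not tested. The median log2 fold change of class I was −0.06 and that of class II −0.72 with the mitochondrial share as a covariate, and that of class II was 0.01 with array weights. Of 516 values of single members under 21 alternatives, 57 changed sign. With the replicate block, 11 genes were called, the medians of both classes were as before (0.26 and −0.12), and H2-T24 had an adjusted p of 0.136 (limma). Same-numbered libraries deviated from their group means with correlations of −0.141, 0.00735 and −0.0818 over 11297 genes, so they showed no shared deviation. The labels do not say whether the numbers pair animals, and these correlations cannot decide it. The adjusted p of H2-T24 ranged from 0.0539 with array weights to 0.284 without Mc4r KO replicate 2. With 3 animals per group, differences within the spread of the Mc4r KO libraries could not be detected.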

Other observations

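Outside the member list, 11 of the 45 genes with an H2 symbol are annotated as pseudogenes or otherwise not as protein coding, and 5 of them had reads. H2-Q5, a polymorphic pseudogene next to the other Q genes, had 164 reads in Mc4r KO replicate 1 and 41 to 58 in the other libraries, and 36.4% of its 50-base words occur in other genes, first among them H2-Q7. H2-T10, which shares 50.4% of its words with other genes, first among them H2-T22, had 42 reads in Mc4r KO replicate 1 and 20 to 33 elsewhere. H2-K2 had 35, 38 and 67 reads in WT and 62, 59 and 69 in Mc4r KO, a log2 fold change of 0.44 ± 0.18 with an unadjusted p of 0.043 and an adjusted p of 0.225 (limma). H2-Ea-ps, the alpha chain partner of H2-Eb1, had 0 reads in all 6 libraries, although H2-Eb1 itself had 431 to 1326 reads. As background, the H-2b haplotype of C57BL/6 mice is known for lacking the E alpha chain.

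Dcn, a matrix proteoglycan used as a fibroblast marker, had 125, 124 and 109 FPKM in WT and 87.0, 77.1 and 83.0 in Mc4r KO, a log2 fold change of −0.53 ± 0.09 with an adjusted p of 0.0579 (limma). The 5 fibroblast markers did not move together, since 2 were higher and 3 lower, with log2 fold changes of 0.44 for Col1a1 and 0.03 for Col1a2. Of the 14 macrophage markers, 7 were higher and 7 lower, with a median log2 fold change of 0.01. Csf1r, Cd68 and Mrc1 were lower in Mc4r KO by 0.37, 0.42 and 0.40 on the log2 scale, with adjusted p-values of 0.183, 0.186 and 0.19 (limma), while C1qa, Cd163, C1qc and C1qb, chosen after their values were seen, had log2 fold changes of 0.63, 0.44, 0.34 and 0.31 and adjusted p-values of 0.303, 0.282, 0.493 and 0.469 (limma). C1qa had 22.6, 22.7 and 51.2 FPKM in WT and 53.8, 46.2 and 39.7 in Mc4r KO. Without WT replicate 3, C1qa was called, with a log2 fold change of 1.025 and an adjusted p of 0.0129 (limma). Leaving out its highest WT library was bound to raise this fold change. That fit called 726 of the 17966 genes tested, so the call describes the dependence on that library only.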
